A study of Mus musculus with 8 samples.

Results

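The 36 genes described here encode the enzymes of glycolysis, the transporters that bring glucose into the cell and let lactate out, the kinases that restrain pyruvate dehydrogenase, and 3 genes known for their induction in hypoxia. They were taken as a list of named genes, found on the array through the RefSeq accession of each probe. All 36 had a probe, 54 probes in all, among 28026 probes that could be named for 21154 genes. All 36 passed the filter on dim probes and were tested together with the other genes, 15182 in total.

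The cells were mouse embryonic stem cells kept on gelatin in a high glucose medium that contained serum and LIF. Every group lacks H-Ras and N-Ras and carries a floxed allele of the remaining RAS gene together with RERTert/ert, a Cre recombinase made from the RNA polymerase II locus that 4-hydroxytamoxifen (OHT) switches on. The 4 groups of 2 one-colour arrays each were labelled ERF knockout cells given OHT for at least 2 days, the same knockout cells untreated, ERF wild type cells given OHT, and wild type cells untreated. Cells of 2 clones were mixed in each sample. By their source names the samples come from 4 cell pools, A2 and B2 of the labelled knockout and A1 and B1 of the wild type, each measured with and without OHT. Replicate 1 of a group is its A pool and replicate 2 its B pool. No group received OHT and kept RAS, so OHT itself and the loss of RAS cannot be told apart. The labels call the replicates biological, and 2 pools a genotype limit the precision of every value.

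Glycolysis splits glucose into pyruvate in the cytosol. Hexokinase traps glucose in the cell, phosphofructokinase commits it to breakdown, and pyruvate kinase makes pyruvate. Lactate dehydrogenase can then reduce pyruvate to lactate, which monocarboxylate transporters export. Pyruvate dehydrogenase instead feeds it to the mitochondria, unless a pyruvate dehydrogenase kinase phosphorylates and inactivates that enzyme. Embryonic stem cells are known for a high rate of glycolysis, and many of these genes are known targets of the hypoxia-inducible factor HIF and of MYC.

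All levels below are log2 signals relative to the 75th percentile of the array, so a level of 0 is that percentile, and levels of different probes are not set against each other. Between 54.0 and 63.6% of the spots of an array were well above background and 0 were saturated. Of the members, 32 were measured above background on all 8 arrays with the probe that was tested. Of 8 embryonic stem cell markers, 7 were above background on all 8 arrays and the other, Zfp42, on 7. So were 5 of 6 trophoblast markers and 4 of 5 primitive endoderm markers on all 8 arrays. Being above background thus does not by itself tell the cell type. Of 8 fibroblast markers 6 were above background on all arrays, while Lum was on 0 arrays, and their part in the results was not tested. The probe of Erf read 3.73 and 5.13 in labelled knockout cells with OHT and 3.25 and 5.42 in those without, against 4.79 and 4.73 in wild type cells with OHT and 4.91 and 5.21 in those without. Pool B2 was thus at the wild type level. Whether the probe lies inside or outside the deleted part is not known here, so it checks no label and the term labelled knockout is kept. Some arrays carry dark patches, areas in which many bright spots read far below their usual level, most widely on pool A2 with OHT (4.88% of spots). The tested probes of Pfkp, Tpi1, Eno2 and Pdk3 lie in such a patch on pool A2 with OHT, that of Pfkfb2 on pool B2 with OHT and that of Slc16a1 on untreated pool A1, and the Ldha spot of untreated pool A2 was marked non-uniform by the scanner software. Those arrays were left out for these 7 genes in the pool-blocked fit described below, so that their change after OHT in that genotype rests on the other pool alone.

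Promoters of 4 members are shown here because HIF, MYC and ETS factors such as ERF are known to bind short core motifs. They are a choice from the members: the windows of Pfkm, which passed in both genotypes below, are not printed. The window runs from 250 bases before to 50 after the start of transcription, from RefSeq on build GRCm38.p6, and 34 of the 36 members matched with 53 windows. Slc2a3 and Slc2a4 are named without one. The core of a HIF site, ACGTG or GCGTG, was searched on both strands and is in capitals in the 4 windows below, where it may read CACGT or CACGC.

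Pdk1 (chr2:71872974-71873273, strand plus): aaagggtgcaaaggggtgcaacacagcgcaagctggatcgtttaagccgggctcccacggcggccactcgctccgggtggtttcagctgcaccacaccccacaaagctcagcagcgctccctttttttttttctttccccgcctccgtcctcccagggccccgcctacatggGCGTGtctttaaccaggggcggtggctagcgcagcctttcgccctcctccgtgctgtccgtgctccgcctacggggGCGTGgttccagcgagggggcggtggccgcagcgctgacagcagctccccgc

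Hk1 (chr10:62340372-62340671, strand minus): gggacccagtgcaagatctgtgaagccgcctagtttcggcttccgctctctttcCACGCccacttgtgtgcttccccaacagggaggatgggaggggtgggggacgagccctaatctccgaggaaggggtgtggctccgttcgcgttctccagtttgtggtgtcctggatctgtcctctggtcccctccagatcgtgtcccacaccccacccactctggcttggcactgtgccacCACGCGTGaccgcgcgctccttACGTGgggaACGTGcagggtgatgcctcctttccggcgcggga

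Ldhb (chr6:142507908-142508207, strand minus): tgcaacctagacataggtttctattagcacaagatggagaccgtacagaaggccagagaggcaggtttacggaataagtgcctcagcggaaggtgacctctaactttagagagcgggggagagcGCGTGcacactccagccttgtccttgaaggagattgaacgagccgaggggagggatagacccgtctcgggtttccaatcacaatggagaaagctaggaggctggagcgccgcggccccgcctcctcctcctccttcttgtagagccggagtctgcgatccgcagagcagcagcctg

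Slc16a3 (chr11:120948817-120949116, strand plus): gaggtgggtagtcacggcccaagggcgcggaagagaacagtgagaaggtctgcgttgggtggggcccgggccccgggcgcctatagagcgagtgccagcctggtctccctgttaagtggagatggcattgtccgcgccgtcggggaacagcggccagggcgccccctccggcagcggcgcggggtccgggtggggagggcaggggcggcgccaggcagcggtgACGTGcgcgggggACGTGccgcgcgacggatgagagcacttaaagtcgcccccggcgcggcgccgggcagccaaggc

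ACGTG stood in 43.4% of the member windows against 19.6% of all 32851 windows, and GCGTG in 56.6% against 32.4%. At least 1 of both stood in 75.5% of member windows against 43.8% of all. CACGTG, the E-box that MYC can bind and which holds ACGTG on both strands, stood in 13.2% of member windows against 7.15%. CCGGAAG, a core that ETS factors can bind, stood in 3.77% of member windows against 8.86%. Some windows of the same gene overlap, as in Eno1 and Aldoa, and each window was counted separately. A match is a run of letters and not a bound site. Windows with and without the HIF core stood among both higher and lower genes: the printed windows of Hk1 and Ldhb belong to genes that rose and those of Pdk1 and Slc16a3 to genes that fell, as given below, while another window each of Hk1 and Pdk1 held no match.

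OHT was followed by a small and divided change of the list. In the pool-blocked fit defined here, Slc2a3 of the transporters, Hk1 of the hexokinases and Ldhb of the lactate dehydrogenases stood higher in both genotypes. Pfkm stood lower, and Pdk1 was lowest in both genotypes. The fitted changes of the enzymes of lower glycolysis were at most 0.30 in size on the log2 scale. Fitted on the 4 group means, limma takes every array as independent and leaves out the pairing of OHT and untreated arrays by pool. With it, 0 of 36 members passed an adjusted p of 0.05 after OHT in the labelled knockout or in the wild type. Of all genes 0.0% passed in either. At an unadjusted p below 0.05 there were 1 member in the labelled knockout (613 of all genes) and 2 in the wild type (924 of all genes). With the 4 pools as blocks and nothing else changed, which asks how far the change itself varies between pools, 0 of 36 members and 0 of all genes passed in either genotype with limma, although 7 members in the labelled knockout (3218 of all genes) and 8 in the wild type (3663 of all genes) had an unadjusted p below 0.05. The adjusted p of Pdk1 was then 0.158 in the labelled knockout and 0.0751 in the wild type, and that of Slc2a3 0.158 and 0.0897, with no member below 0.158 and 0.0751. Leaving out dark patches alone, or using a trended, robust variance alone, gave 0 members too, and 0 to 3 of all genes. In the pool-blocked fit, which joins all 3 steps, 7 of 36 members passed in the labelled knockout (19.4%), against a background of 11.0% of all genes, and 8 of 36 in the wild type (22.2%), against 17.9%. In the labelled knockout 3 members were higher and 4 lower, where 6.45% of all genes were higher and 4.53% lower. In the wild type 5 members were higher and 3 lower, where 8.31% of all genes were higher and 9.57% lower. The members' shares thus lie near or somewhat above the background. With any 2 of the 3 steps 0 to 3 members passed in the labelled knockout and 0 to 5 in the wild type. Of all genes, 0 to 514 then passed in the labelled knockout and 5 to 1563 in the wild type. Most of the calls below thus depend on joining the 3 steps. Each "rose", "fell" and adjusted p below refers to this pool-blocked limma fit, adjusted over all genes by Benjamini-Hochberg, unless another fit is named. A value after ± is an SE from 1 estimate of spread shared by both genotypes and moderated over genes. It does not measure the spread between the 2 pools of a genotype.

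In the pool-blocked fit 5 of 36 members (13.9%) passed in both genotypes, against 1143 of all genes (7.53%). Their directions were the same in both, as were those of 1137 of the 1143 genes: Slc2a3, Hk1 and Ldhb rose and Pdk1 and Pfkm fell. In the labelled knockout 14 members stood higher and 22 lower after OHT, where 8733 of all genes stood higher and 6448 lower, and in the wild type 16 stood higher and 20 lower, where 7027 of all genes stood higher and 8155 lower. The median change was -0.06 in the labelled knockout, where it was 0.05 over all genes, and -0.07 in the wild type, where it was -0.03. The sign of the change was the same in both genotypes for 30 of 36 members (83.3%), against 73.2% of all genes. Of the 29 members measured in all 4 pools without a dark patch, 10 were higher and 9 lower after OHT in all 4, together 65.5%, against 46.6% of all genes.

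**Figure D1:**
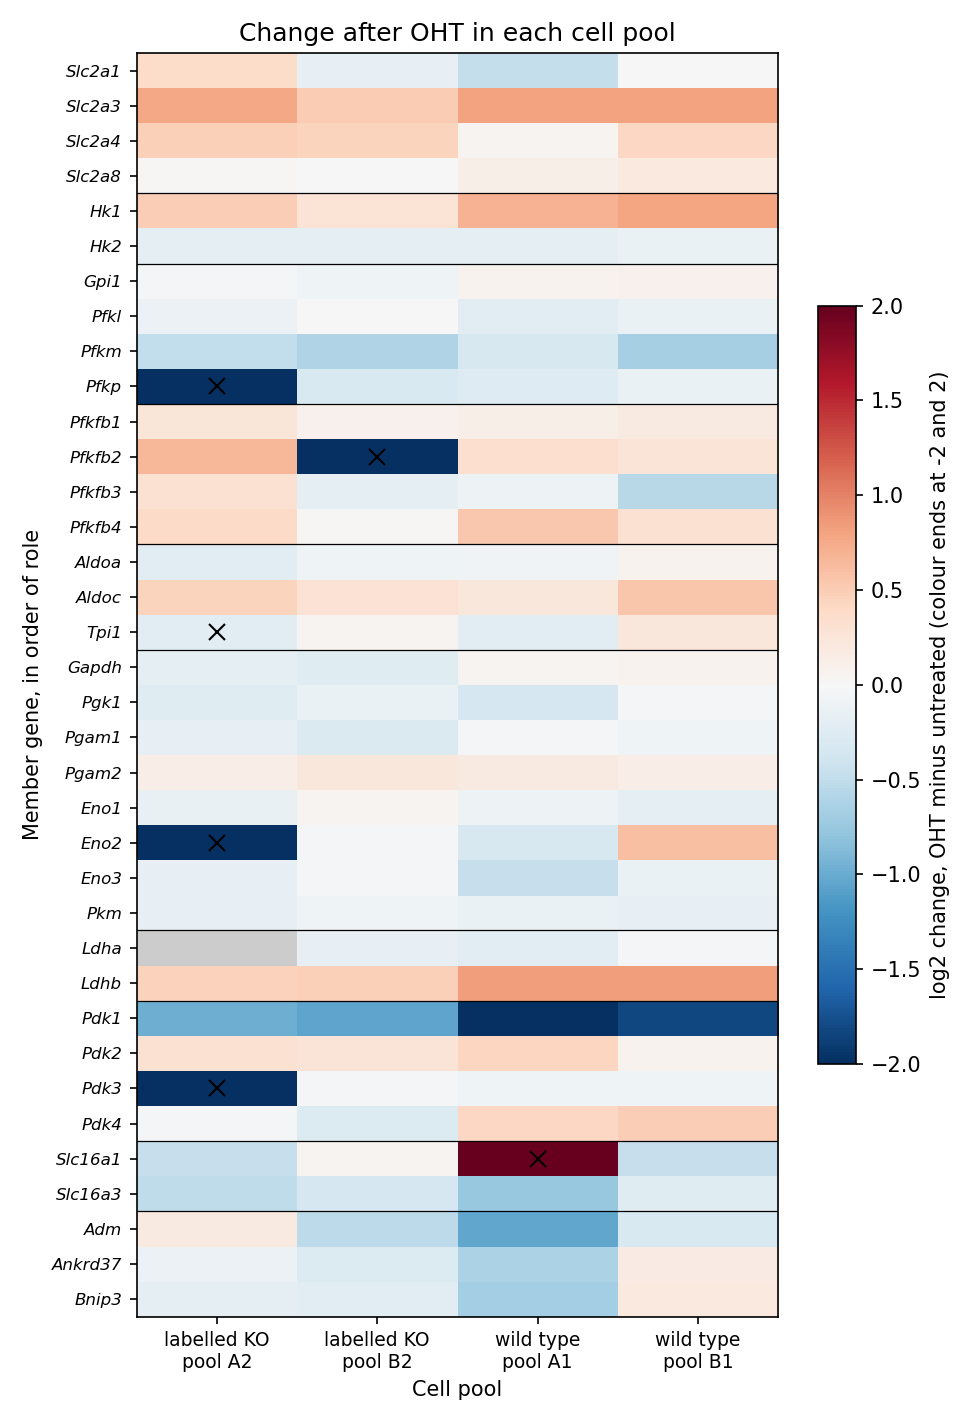
Log2 change after OHT (OHT minus untreated) of the 36 members in each cell pool, one row a gene in order of role, red higher and blue lower, with the colour scale ending at -2 and 2. Crosses mark a value that uses a spot in a dark patch and grey a spot that was left out. Pdk1 is blue in all 4 pools, from -2.13 to -0.98, and Slc2a3, Hk1 and Ldhb are red in all 4.

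Among the glucose transporters, Slc2a3 rose. It encodes GLUT3, a high-affinity carrier. Its level was 6.99 in pool A2 and 6.60 in pool B2 with OHT, against 6.22 and 6.09 without it, and in the wild type 6.89 in pool A1 and 6.79 in pool B1 with OHT, against 6.09 and 5.99 without it. The arrays with and without OHT did not overlap in either genotype. The change was 0.64 ± 0.07 in the labelled knockout (1.56-fold, SE, limma adjusted p = 0.00302) and 0.80 ± 0.07 in the wild type (1.74-fold, adjusted p = 0.000467). The other 3 transporters did not pass. Slc2a1, the widely expressed GLUT1, changed by 0.10 ± 0.15 in the labelled knockout and -0.24 ± 0.15 in the wild type, and its pools moved apart within each genotype, by 0.37 and -0.17 in A2 and B2 and by -0.48 and about 0 in A1 and B1. Slc2a4, the insulin-responsive GLUT4, was higher after OHT in all 4 pools, by 0.05 to 0.48, without passing (adjusted p = 0.0596 in the labelled knockout and 0.278 in the wild type). Slc2a8 changed by 0.01 and 0.15.

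Of the hexokinases, which phosphorylate glucose, Hk1 rose. It read 2.62 and 3.03 in labelled knockout cells with OHT, against 2.13 and 2.75 without. In the wild type it read 2.82 and 3.43 with OHT, against 2.13 and 2.64 without. The values overlapped between OHT and untreated arrays in the labelled knockout, since pool B2 lay above pool A2, and not in the wild type, and within every pool the OHT array was the higher. The change was 0.38 ± 0.09 in the labelled knockout (1.31-fold, limma adjusted p = 0.031, and 0.175 without pool A2) and 0.74 ± 0.09 in the wild type (1.68-fold, adjusted p = 0.00141). A second, dimmer Hk1 probe was also higher in all 4 pools, by 0.28 to 0.66. Hk2, the isoform known for its induction by HIF, was lower in all 4 pools, by 0.14 to 0.19, and did not pass (adjusted p = 0.112 and 0.138).

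**Figure D2:**
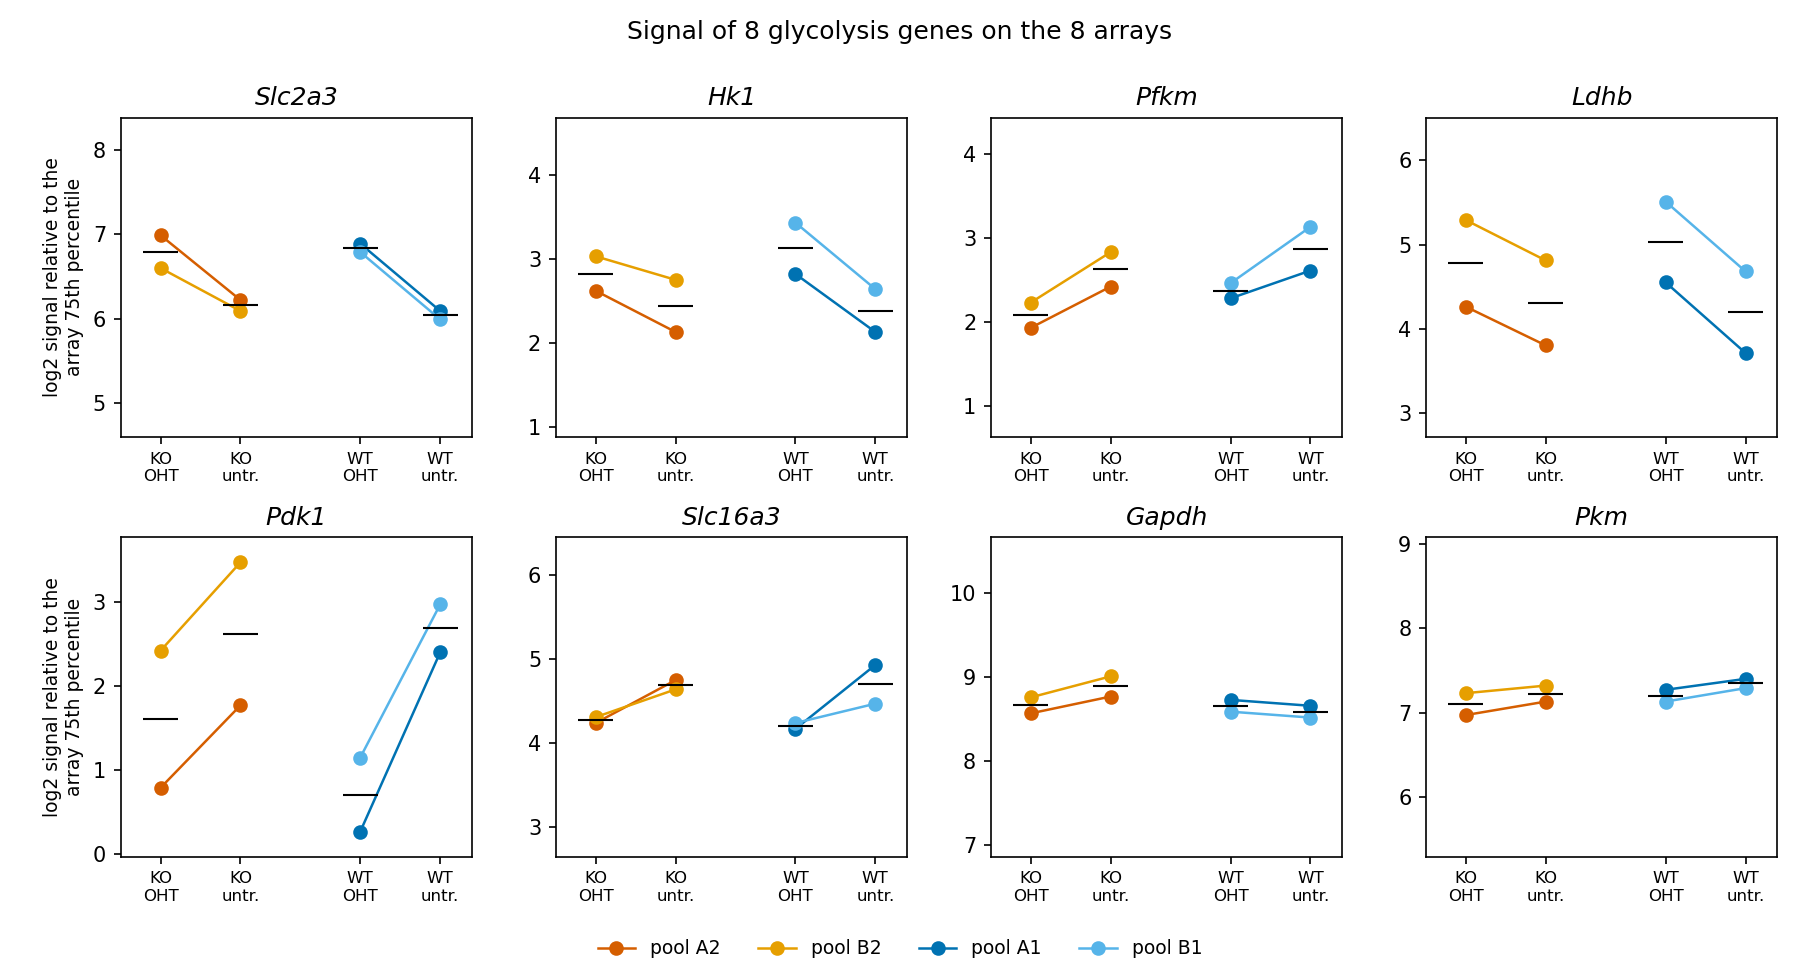
Log2 signal relative to the array's 75th percentile of 8 members on the 8 arrays, labelled knockout (KO) left of wild type (WT) and OHT left of untreated (untr.). Points are arrays, lines join the same cell pool, black bars are means of 2 pools, and each panel spans the same range of log2 units. Slc2a3, Hk1 and Ldhb lie higher and Pdk1 and Pfkm lower with OHT in each pool, and Pkm shifts by 0.09 to 0.17.

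In upper glycolysis, from glucose 6-phosphate to the triose phosphates, Pfkm fell. It encodes the muscle-type subunit of phosphofructokinase. Its level was 1.93 and 2.23 in labelled knockout cells with OHT, against 2.42 and 2.83 without, and 2.28 and 2.46 in wild type cells with OHT, against 2.61 and 3.13 without. No OHT array reached an untreated array of the same genotype. The change was -0.54 ± 0.10 in the labelled knockout (limma adjusted p = 0.0175) and -0.50 ± 0.10 in the wild type (adjusted p = 0.0134), which is 1.46-fold and 1.41-fold lower. Without pool A2 or B2 the knockout call was lost (adjusted p = 0.0518 and 0.0737), as was the wild type call without pool B1 (0.258). The liver-type subunit Pfkl and the platelet-type subunit Pfkp were lower without passing, Pfkl by 0.01 to 0.21 in the 4 pools, and Pfkp by 0.31 in pool B2 and by 0.26 and 0.13 in pools A1 and B1. The 3 subunit genes thus had the same sign and only the muscle type passed.

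Aldoc, an aldolase of brain and other tissues, was higher by 0.37 ± 0.10 in the labelled knockout, where it did not pass (adjusted p = 0.0523), and rose by 0.39 ± 0.10 in the wild type (adjusted p = 0.0307), a call lost without pool A1 (adjusted p = 0.0529) or B1 (0.447). Aldoa, the main aldolase, changed by -0.15 and 0.00. Gpi1, glucose 6-phosphate isomerase, and Tpi1, triose phosphate isomerase, had fitted changes within 0.10 of 0 in both genotypes. For Tpi1 the wild type pools moved apart, by -0.21 in A1 and 0.23 in B1, and the labelled knockout value rests on pool B2 alone.

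The bifunctional enzymes that make and break fructose 2,6-bisphosphate, the activator of phosphofructokinase, did not pass in either genotype. Pfkfb1, Pfkfb2 and Pfkfb4 were higher after OHT, by 0.16, 0.67 and 0.21 in the labelled knockout and by 0.15, 0.29 and 0.42 in the wild type. The 0.67 of Pfkfb2 rests on pool A2 alone. Pfkfb3, the isoform known from proliferating cells, differed between pools far more than with OHT, as described below.

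Lower glycolysis, which yields ATP, moved little in the fit. Its 8 genes changed by -0.23 to 0.18 in the labelled knockout, where 2 passed. They changed by -0.30 to 0.16 in the wild type, where 0 passed with limma. There 4 of the 8 had an unadjusted p below 0.05, as had 4935 of all 15182 genes. Eno2 is poorly resolved among them. Its wild type value of 0.14 ± 0.22 averages -0.32 in pool A1 and 0.60 in pool B1. Its labelled knockout value of -0.03 ± 0.31 rests on pool B2 alone. Gapdh, glyceraldehyde phosphate dehydrogenase and a common reference gene, read 8.57 and 8.76 in labelled knockout cells with OHT, against 8.77 and 9.01 without, and 8.73 and 8.59 in wild type cells with OHT, against 8.66 and 8.52 without. It fell by 0.22 ± 0.05 in the labelled knockout (1.17-fold lower, limma adjusted p = 0.0243) and was higher by 0.07 ± 0.05 in the wild type (adjusted p = 0.38). Another 5 Gapdh probes without a dark patch on any array changed by -0.24 to -0.04 in the labelled knockout and by -0.02 to 0.10 in the wild type. Pgam1, a phosphoglycerate mutase, fell by 0.23 ± 0.05 in the labelled knockout (adjusted p = 0.0367) and changed by -0.06 ± 0.05 in the wild type (adjusted p = 0.467). The knockout calls were lost without pool A2 or B2, at adjusted p of 0.0763 and 0.106 for Gapdh and of 0.0661 and 0.188 for Pgam1.

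Pkm, pyruvate kinase, read 6.97 and 7.23 in labelled knockout cells with OHT, against 7.13 and 7.32 without, and 7.27 and 7.13 in wild type cells with OHT, against 7.40 and 7.29 without. Its fitted change was -0.13 ± 0.05 in the labelled knockout and -0.15 ± 0.05 in the wild type, without passing (adjusted p = 0.166 and 0.105), and the array does not separate its splice forms here. Pgk1, phosphoglycerate kinase, changed by -0.19 in both genotypes. Eno1, the ubiquitous enolase, changed by -0.04 and -0.15. The isoforms known from muscle were measured too: Eno3 changed by -0.09 and -0.30 and Pgam2 by 0.18 and 0.16. Of 4 muscle markers, Myod1 and Myog, which define muscle, were above background on 0 arrays, Ckm on 1 and Des on 8.

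Of the 2 lactate dehydrogenase genes, Ldhb rose, and the pair was not tested against each other. Ldhb, whose H subunit is known from tissues that oxidise lactate, read 4.26 in pool A2 and 5.29 in pool B2 with OHT, against 3.80 and 4.81 without, and 4.55 in pool A1 and 5.51 in pool B1 with OHT, against 3.71 and 4.68 without. The B pools lay about 1 log2 unit above the A pools, so that the groups overlapped, but each pool rose by a like amount, 0.46 and 0.47 in the labelled knockout and 0.84 and 0.83 in the wild type. The fitted change was 0.47 ± 0.06 (1.38-fold, limma adjusted p = 0.00611) and 0.83 ± 0.06 (1.78-fold, adjusted p = 0.000276). Ldha, the M subunit known for lactate production, changed by -0.16 ± 0.09 in the labelled knockout and -0.11 ± 0.06 in the wild type with its brightest probe, without passing (adjusted p = 0.27 in each). Both dimmer Ldha probes were lower in all 4 pools, by 0.16 to 0.61, so its probes disagree in size and not in sign.

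Pdk1, a kinase that inactivates pyruvate dehydrogenase, had the largest change of the list. Its level was 0.79 in pool A2 and 2.42 in pool B2 with OHT, against 1.77 and 3.47 without, and 0.27 in pool A1 and 1.15 in pool B1 with OHT, against 2.40 and 2.97 without. In the wild type no OHT array reached an untreated one, and in the labelled knockout pool B2 with OHT lay above untreated pool A2. Within pools the change was -0.98 and -1.06 in the labelled knockout and -2.13 and -1.82 in the wild type. The fit gave -1.02 ± 0.10 in the labelled knockout, 2.02-fold lower (limma adjusted p = 0.00192), and -1.97 ± 0.10 in the wild type, 3.93-fold lower (adjusted p = 5.88e-05). The other kinases of the family did not follow. Pdk2 was higher in all 4 pools, by 0.07 to 0.43, without passing, and Pdk3 changed by -0.02 and -0.08. Pdk4, the isoform known from fasting, changed by -0.15 ± 0.13 in the labelled knockout (adjusted p = 0.509) and rose by 0.46 ± 0.13 in the wild type (adjusted p = 0.049996, at the threshold), a call that leaving out pool A1 (adjusted p = 0.238) or B1 (0.365) ended.

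Of the monocarboxylate transporters, Slc16a3, the lactate exporter MCT4 known as a HIF target, was lower in all 4 pools. It read 4.24 and 4.31 in labelled knockout cells with OHT, against 4.75 and 4.64 without, and 4.17 and 4.24 in wild type cells with OHT, against 4.93 and 4.47 without. OHT and untreated arrays did not overlap in either genotype. The change was -0.42 ± 0.12 in the labelled knockout, which did not pass (limma adjusted p = 0.0669), and -0.50 ± 0.12 in the wild type, which did (1.41-fold lower, adjusted p = 0.0296) and rests on pool A1, since without it the change was -0.24 (adjusted p = 0.329). A second Slc16a3 probe was lower by 0.24 to 0.69 in the 4 pools. Slc16a1, the widespread carrier MCT1, was dim and did not pass.

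The 3 genes known mainly for their induction in hypoxia did not pass. Adm, which encodes the vessel-dilating peptide adrenomedullin, changed by -0.17 and -0.67, Ankrd37 by -0.19 and -0.23, and Bnip3, a mitophagy receptor, by -0.20 and -0.24 in the labelled knockout and the wild type. All 3 were lower in pool A1, by 0.63 to 1.04, while in pool B1 Adm was lower by 0.30 and the other two were higher by 0.16 and 0.20.

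**Figure D3:**
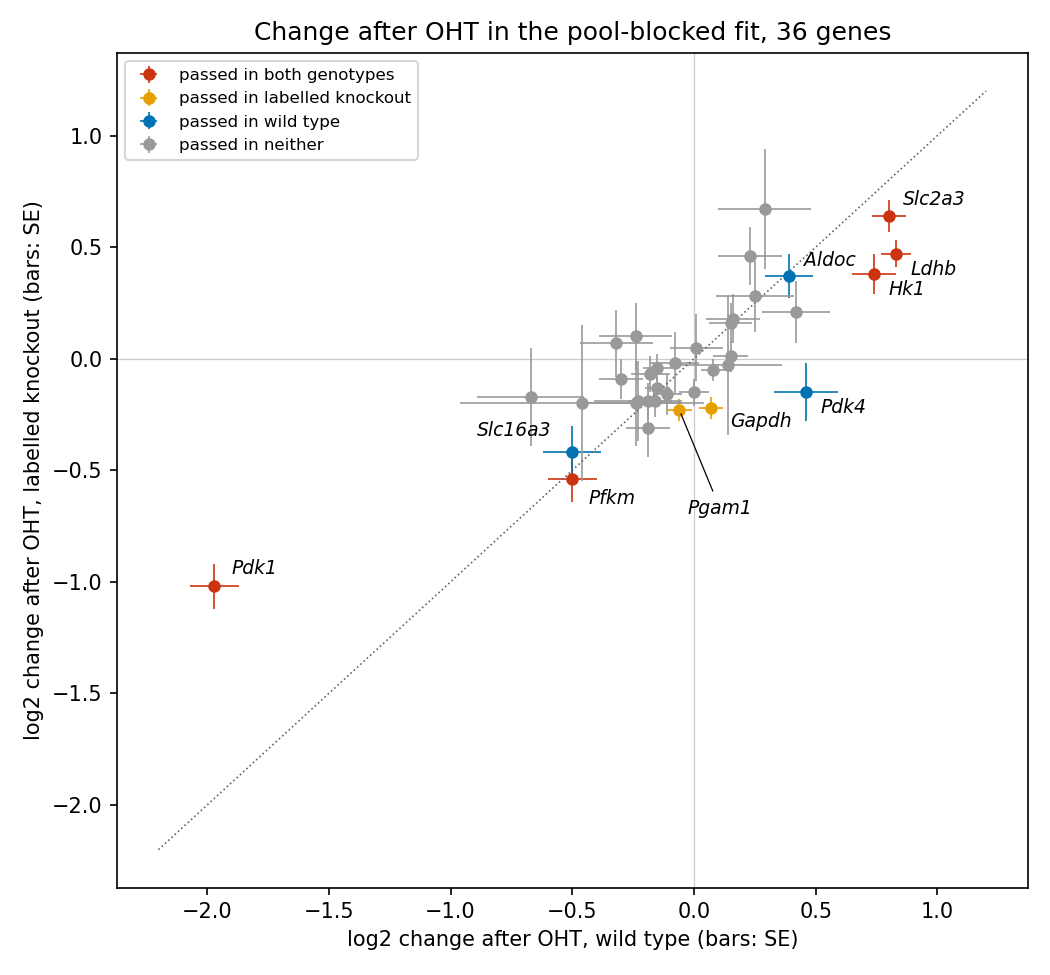
Fitted log2 change after OHT in the pool-blocked fit for the 36 members, labelled knockout on the vertical and wild type on the horizontal axis, bars 1 SE, the dotted line marking equal change. Slc2a3, Hk1 and Ldhb lie at the upper right, Pdk1 alone at the lower left, at -1.02 in the labelled knockout and -1.97 in the wild type.

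Whether the response differed between the genotypes was tested directly. With limma, 0 of 36 members passed on the group means (0 at an unadjusted p below 0.05, against 196 of all genes) and 0 in the pool-blocked fit (5 at an unadjusted p below 0.05, against 1331 of all genes), and 0.0% of all genes passed in either. The 5 were Pdk1, Gapdh, Ldhb, Pdk4 and Hk1. Pdk1 had the smallest adjusted p: its change was 0.96 ± 0.14 higher in the labelled knockout than in the wild type, that is, a smaller fall (limma adjusted p = 0.0958). The difference was -0.37 ± 0.09 for Ldhb (adjusted p = 0.332) and -0.36 ± 0.12 for Hk1 (adjusted p = 0.479), a smaller rise in the labelled knockout, and for Slc2a3 it was -0.16 ± 0.10 (adjusted p = 0.713). These differences did not pass, so the size of the response is not shown to depend on the genotype.

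The labelled knockout did not differ from the wild type in any member at the threshold. Without OHT, 0 of 36 members passed on the group means with limma and 0 at an unadjusted p below 0.05 (195 of all genes). In the pool-blocked fit, in which pools are here a random block, 0 of 36 passed. There 1 member had an unadjusted p below 0.05, as had 32 of all genes. With OHT, 0 of 36 passed in both fits, again with 0 at an unadjusted p below 0.05 in either. Of all genes, 344 on the group means and 241 in the pool-blocked fit then had such a p. Of all genes 0.0% passed in these comparisons. The median member difference was -0.04 without OHT and -0.15 with OHT on the group means, where dark patches were left in, and -0.04 and -0.09 in the pool-blocked fit. Both B1 arrays were on a second slide that held no labelled knockout array, and no member passed within slide 1 or with slide as a block either.

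The cell pools of a genotype also differed from each other. In the labelled knockout, the 2 arrays of pool A2 and the 2 of pool B2 did not overlap in 22 of the 30 members with 4 usable arrays: pool A2 was lower in 18, against 38.2% of all genes, and higher in 4, against 25.7%. These are descriptions of 2 pools with no test. The median difference was -0.33. By 1 log2 unit or more pool A2 was lower in Pdk1, by 1.66, and Ldhb, by 1.02, against 6.3% of all genes. It was higher by that much in Pfkfb3 alone, by 2.21, against 7.38%. Pgam2, with means of -0.88 in pool A2 and 0.12 in pool B2, fell just short of that size (1.99-fold lower). Erf itself was lower in pool A2, as given above, and its part was not tested. In the wild type pool A1 was lower than pool B1 in 12 of 35 members, against 30.6% of all genes, and higher in 8, against 22.5%, with a median difference of -0.11. There 0 members were lower by 1 or more, against 2.14%, and 1 was higher, against 3.83%. Pools A1 and B1 were on different slides, so pool and slide cannot be told apart there.

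Pfkfb3 was the member with the highest level in A relative to B pools in both genotypes. It read 2.86 and 2.55 in pool A2 with and without OHT, against 0.41 and 0.59 in pool B2, and 1.32 and 1.42 in pool A1, against -0.08 and 0.47 in pool B1. A second, dimmer Pfkfb3 probe had the same order in both genotypes with and without OHT, though it was above background on 5 of 8 arrays only. Slc2a1 was likewise higher in the A pools, by 0.80 in the labelled knockout and 0.51 in the wild type, without overlap. Hk2, by contrast, was lower in them, by 0.96 and 0.54, and Pdk4 by 0.67 and 0.99.

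**Figure D4:**
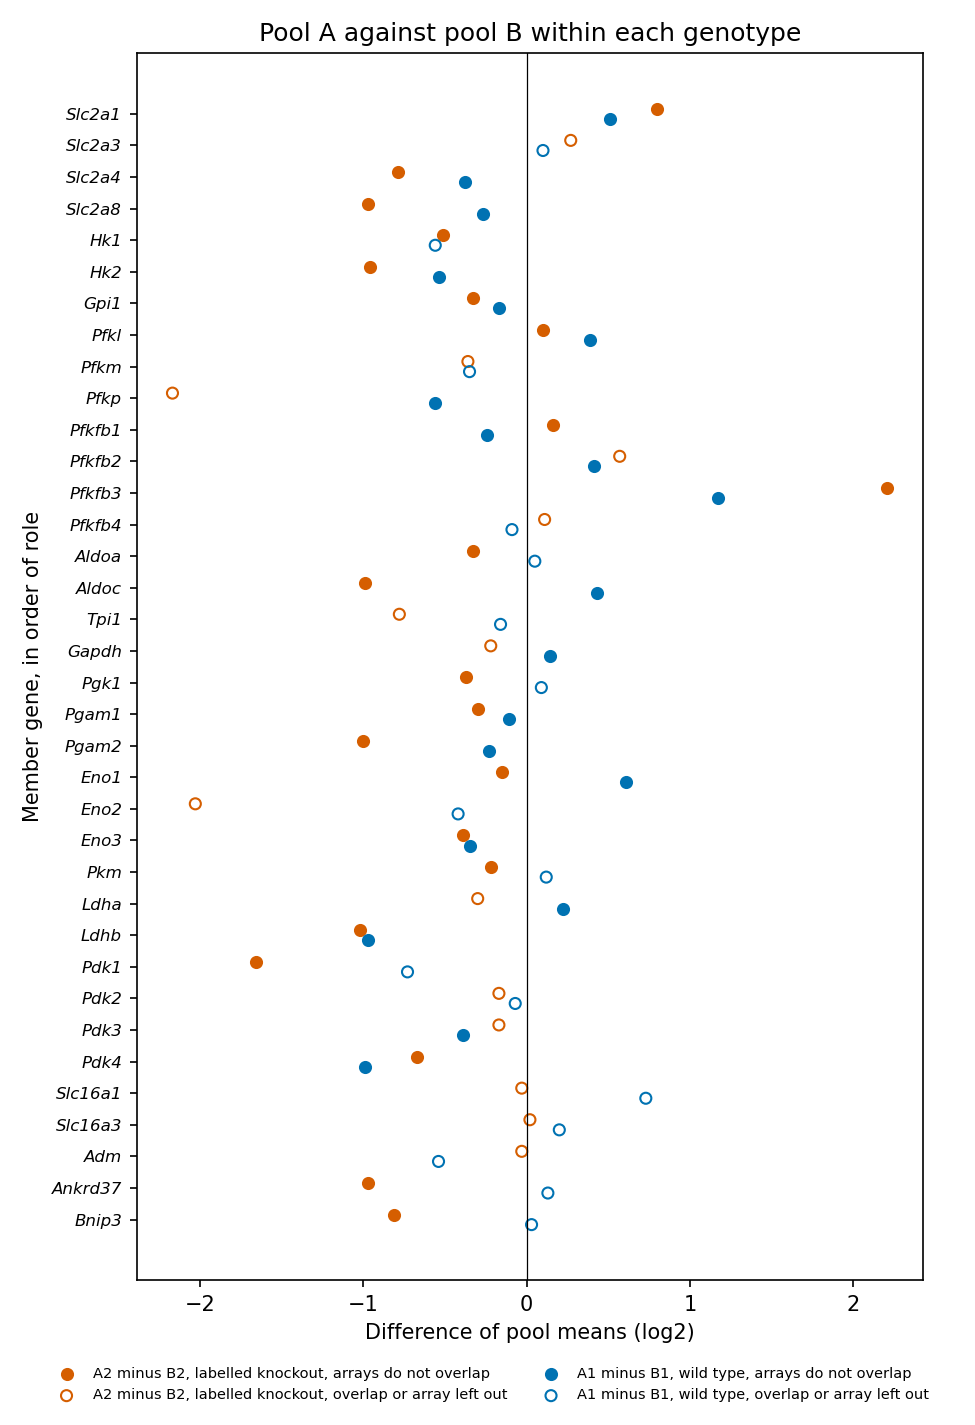
Difference of pool means in log2 units for each member, A2 minus B2 in the labelled knockout (orange, above) and A1 minus B1 in the wild type (blue, below), filled where the 2 arrays of the pools do not overlap. Most orange points lie left of 0, with Pfkfb3 far to the right at 2.21.

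Lists of neighbouring pathways were counted in the pool-blocked fit, against the backgrounds of 11.0% in the labelled knockout and 17.9% in the wild type. The pentose phosphate pathway, which draws glucose 6-phosphate off for NADPH and ribose, had 5 of 12 tested genes past the threshold in the labelled knockout (2 higher, 3 lower, 41.7%) and 5 of 12 in the wild type (1 higher, 4 lower, 41.7%). Tigar, a phosphatase that lowers fructose 2,6-bisphosphate, rose by 0.39 in the labelled knockout and by 0.80 in the wild type. Prps2, which makes phosphoribosyl pyrophosphate, fell by 1.07 in each, in the labelled knockout on pool B2 alone, and Prps1, its paralogue, fell by 0.63 and 0.27. G6pdx, the entry enzyme of the pathway, fell by 0.33 in the labelled knockout and by 0.42 in the wild type, and Pgls, the next enzyme, by 0.57 in the wild type. Median changes of the list were 0.07 and -0.06.

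Pyruvate entry to mitochondria had 1 of 11 genes past the threshold in the labelled knockout (9.09%, against 11.0% of all genes) and 2 of 11 in the wild type (18.2%, against 17.9%), all lower. Pdhb, the beta subunit of the E1 component of pyruvate dehydrogenase, fell by 0.34 and 0.51, and Pdp1, the phosphatase that reverses the kinases, by 0.46 in the wild type. The TCA cycle had 3 of 20 genes past the threshold in the labelled knockout (2 higher, 1 lower, 15.0%) and 4 of 20 in the wild type (2 higher, 2 lower, 20.0%). Both lists thus stood near the background in both genotypes. Idh1, the cytosolic isocitrate dehydrogenase, was higher by 0.84 in the labelled knockout, and Idh2, the mitochondrial one, by 0.59 in the wild type. Gluconeogenesis had 1 of 4 in each (25.0%), Fbp1, fructose 1,6-bisphosphatase, which fell by 0.81 and 0.70. Other glycolytic isoforms and branch enzymes had 1 of 14 in each (7.14%, below the background), Slc2a6, a glucose transporter, higher by 0.66 in the labelled knockout, and Minpp1, lower by 0.32 in the wild type.

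Regulators of HIF had 3 of 10 genes past the threshold in the labelled knockout (2 higher, 1 lower, 30.0% against 11.0% of all genes) and 1 of 10 in the wild type (below the background of 17.9%). Egln3, a prolyl hydroxylase that marks HIF for degradation and is itself induced by it, fell by 0.78 and 0.53. Vhl, the ubiquitin ligase subunit that recognises the mark, rose by 0.39 and Arnt, the partner of HIF, by 0.35 in the labelled knockout. Other genes known from the hypoxia response had 6 of 24 in the labelled knockout (4 higher, 2 lower, 25.0% against 11.0%) and 7 of 24 in the wild type (4 higher, 3 lower, 29.2% against 17.9%), with Egln3 counted in both lists. Cited2 rose by 0.52 in the labelled knockout and by 0.86 in the wild type, and Anxa2 by 0.63 and 0.53, while in the wild type Fam162a fell by 0.66 and Stc2 fell in both pools, by 1.06 and 1.14. The list moved both ways, with a median of 0.13 in the labelled knockout and -0.01 in the wild type.

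**Figure D5:**
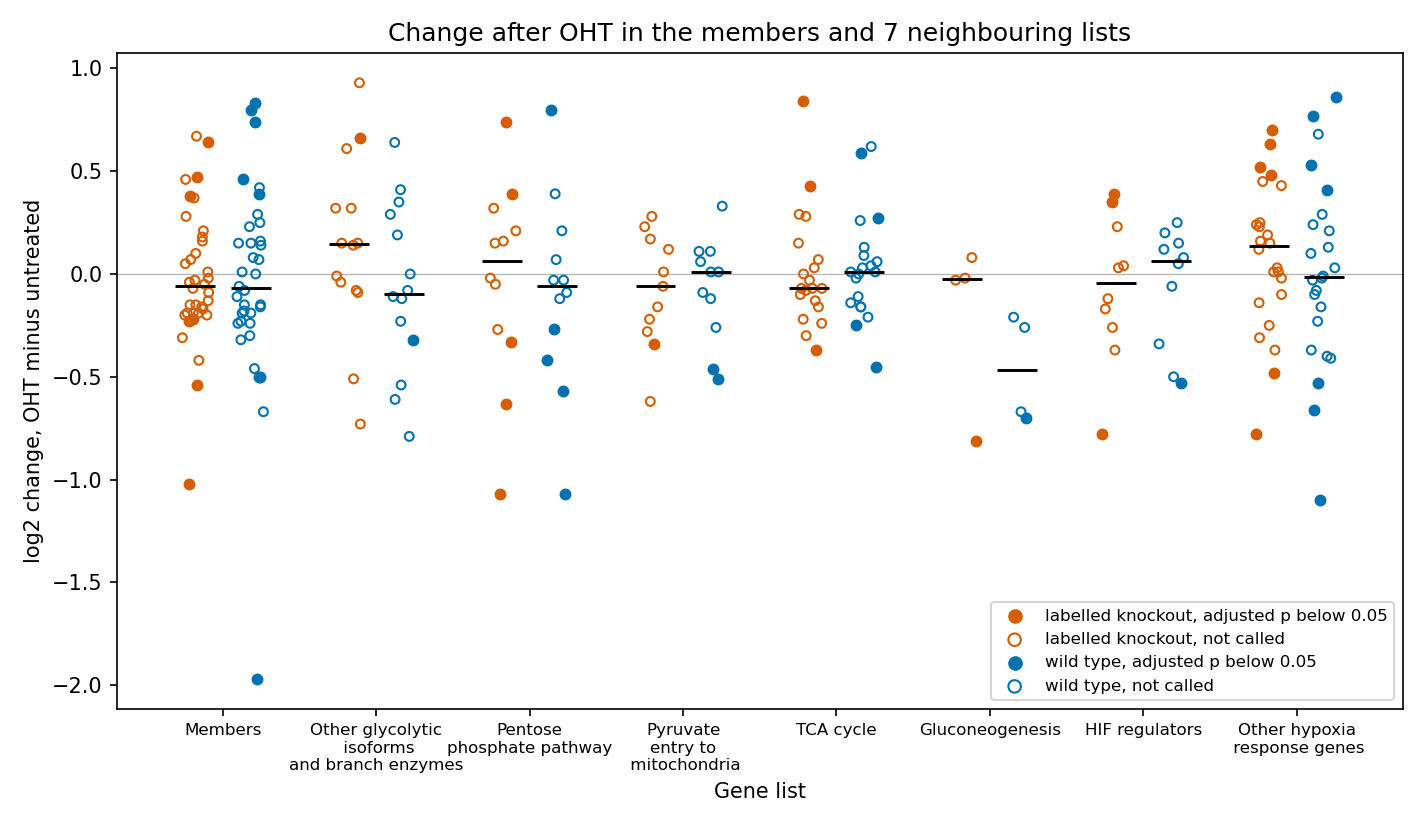
Fitted log2 change after OHT in the pool-blocked fit for the members and 7 neighbouring lists, labelled knockout (orange) left of wild type (blue), filled where adjusted p is below 0.05, black bars marking medians. Every list has values on both sides of 0 in at least 1 genotype, and Pdk1 is the lowest point at -1.97.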

How the data were processed

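Total RNA of 8 samples was hybridised to 1 Cy3 array each, per the labels. Scanner files with 1 intensity value a spot were deposited. Per the file headers, Agilent Feature Extraction 11.5.1.1 subtracted background and detrended each array, without scaling between arrays. Other deposited columns used are 0 or 1 flags, per the file headers, for spots above background, saturated, non-uniform or population outliers. A deposited value table of the series was not used.

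After removal of control and outlier spots, replicate spots were averaged, and signals were expressed as log2 relative to the 75th percentile of their array. Probes were named through a RefSeq table of GRCm38.p6. Tested probes had to exceed background on both arrays of 1 or more groups, and the brightest was kept for each gene. Each array's precision depends on signal over background, and 54.0 to 63.6% of spots were above it.

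limma 3.58.1 in R 4.3.3 (lmFit, eBayes, Benjamini-Hochberg over all genes, two-sided) was fitted on 4 group means with 4 residual degrees of freedom. The pool-blocked fit takes pools as blocks with 2 residual degrees of freedom (between genotypes, as a random block), leaves dark patches out and uses a trended, robust variance. Each of its 3 steps was also run alone, and, as a choice made after seeing the data, in pairs. Pools pair samples by source name, and deviations of replicates correlated at 0.443 between the labelled knockout groups and 0.658 between the wild type groups (0.724 and 0.758 with dark patches out). Between groups of different genotype, which share no pool, they correlated at 0.226 to 0.508 (0.422 to 0.566 with dark patches out). Part of the correlation is thus not tied to a shared pool. A spot lies in a dark patch if, of the other bright spots in a window of 7 by 7, at least 3 and at least 15% read over 1.5 log2 units below their own median, a rule set after the neighbourhoods of member spots were seen.

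Tested on simulated data for OHT in the wild type with 15182 genes, drawn with equal noise for every gene and no dark patches, the pool-blocked fit recovered 77% of changes of 0.5 and 100% of changes of 1, with 6 false calls, and the group means 0% of either. The simulated pool effects and noise were drawn as the pool-blocked fit assumes, so the gap between the 2 fits was built in. The simulation therefore does not measure false calls in the real data. Members and lists were chosen with earlier results of these data known. Values on every array are given for Gapdh, Pkm, Pdk1 and members that passed with a change of at least 0.5, and Slc16a3 was added after its values were seen. From each further list up to 3 genes with the smallest p are named, and Cited2 in the labelled knockout, Stc2 and Prps1 in the wild type and G6pdx in both were added after their values were seen. Other settings are given in the closing section. Figures and tables used Python 3.11.15, numpy 2.4.6, pandas 2.3.3 and matplotlib 3.10.9.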

Additional observations from a re-analysis of the deposited data

Results flagged for a closer look

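With the tested probe, both pools of 1 genotype moved opposite to both pools of the other after OHT in 3 members. The share of all genes with this pattern is not given, so the count stands without a background. Whether it exceeds what random signs would give was not tested. None of the 3 differences passed the limma test of the difference itself. Not every other probe of Gpi1 and Gapdh kept the pattern. Another Gpi1 probe changed by 0.01 in pool B2, and another Gapdh probe by 0.06 in pool A1 and -0.10 in pool B1. Gpi1 changed by -0.03 and -0.08 in labelled knockout pools A2 and B2 and by 0.07 and 0.09 in wild type pools A1 and B1, a difference of -0.14 (adjusted p = 0.685). Gapdh changed by -0.20 and -0.25 in the labelled knockout and by 0.06 and 0.07 in the wild type, a difference of -0.29 (adjusted p = 0.263). Pdk4 changed by -0.02 and -0.27 in the labelled knockout and by 0.42 and 0.49 in the wild type, a difference of -0.60 (adjusted p = 0.432).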

How the results depend on the processing

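On the group means 0 of 36 members passed in each genotype. The replicate block alone left both OHT comparisons, the difference and the genotype comparisons at 0 (adjusted p of Pdk1 0.158 in the labelled knockout and 0.0751 in the wild type, and of Slc2a3 0.158 and 0.0897), as did leaving dark patches out alone and trended, robust variance alone. All 3 together, the pool-blocked fit, gave 7 in the labelled knockout and 8 in the wild type. In pairs, chosen after seeing the data, the block with dark patches out gave 0 and 2 (0 and 334 of all genes). The block with trended, robust variance gave 3 and 5 (514 and 1563 of all genes), and the other pair 0 and 0 (0 and 5). Without pool A1, A2, B1 or B2 in the pool-blocked fit there were 6, 3, 6 and 5 in the labelled knockout and 5, 10, 7 and 10 in the wild type, and 0 to 2 for the difference (2 without B1, 1 without B2). Slc2a3, Ldhb and Pdk1 passed in both genotypes whichever pool was left out, and Hk1 did so in the wild type. In the labelled knockout Gapdh, Pfkm and Pgam1 were lost without A2 or B2, Hk1 without A1, A2 or B1 and Pgam1 also without A1 or B1, at adjusted p from 0.0518 to 0.188. In the wild type Aldoc, Pdk4 and Slc16a3 were lost without A1 and Aldoc, Pdk4 and Pfkm without B1, at adjusted p from 0.0529 to 0.447. A genotype whose pool is left out rests on 1 pool, which is assumed to vary like the others. Counts over all genes are not given for these fits, so their member counts stand without a background. The genotype comparisons could not be fitted in this way.

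Leaving out 1 array on the group means gave 0 to 2 members in the labelled knockout, for the difference and for the genotypes with OHT, the 2 without the pool B2 array with OHT. Member medians then ran from -0.33 to 0.08 in the labelled knockout, -0.05 to 0.09 in the wild type, -0.29 to 0.13 for the difference and -0.23 to 0.08 between genotypes with OHT.

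The labelled knockout median of -0.14 on the group means became -0.04 with quantile normalisation, -0.11 with probes above background on all 8 arrays, -0.05 with dark patches out (also with trended, robust variance), -0.06 with the block and dark patches out and -0.06 in the pool-blocked fit (-0.06, -0.08, -0.06 and -0.02 without A1, A2, B1 and B2). The median difference of -0.04 became -0.15 with normexp background and 0.05 in the pool-blocked fit without B1. Scaling to the array median moved the median of all genes to -0.16 in the labelled knockout, 0.12 in the wild type, -0.30 for the difference and 0.21 between untreated genotypes, and the member medians to -0.33, 0.12, -0.38 and 0.19. All 15 changes called in the pool-blocked fit kept their sign under the 3 other scalings on the group means. The size of small changes depended on the scaling. In the labelled knockout Gapdh ran from -0.42 with array median scaling to -0.08 with quantile normalisation, and Pgam1 from -0.43 to -0.18. The cause of these shifts was not tested.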
